A study of Mus musculus with 16 samples.

Results

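The collagen chain genes were followed in MEC1 cells, an established mouse epicardial cell line, in libraries made from poly(A) RNA. They were chosen by symbol alone, as every gene named Col, a number, the letter a and a number, which gave 44 of the 46348 genes in the deposited table. By the structure of their products, 11 encode fibrillar chains, 8 encode chains of basement membrane collagens, 6 encode chains of collagen VI and 19 encode other collagens. The cells carried PRMT1 siRNA, p53 siRNA, both siRNAs or control siRNA, and each treatment was sequenced with TGF-beta and without TGF-beta, in 2 libraries per group and 16 in all. The control cells were thus transfected too. The amount of siRNA, the amount of TGF-beta and the time of exposure are not given in the sources used here. The libraries of a group are called replicates without word of separate cultures, so p-values measure only the spread between these libraries, which may be technical. The title of the study names a PRMT1-Mdm4-p53 pathway in epicardial invasion and cell fate.

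A collagen molecule is a triple helix of alpha chains, and which chains a cell makes decides which trimers it can assemble. Fibrillar chains build the tensile fibres of the interstitium, collagen IV chains build the sheet of the basement membrane, and collagen VI chains build beaded microfilaments that link cells to both. The epicardium is a mesothelial layer on a basement membrane. TGF-beta drives some of its cells to lose epithelial character and invade the heart, where they deposit fibrillar matrix.

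Of the 44 collagen genes, 33 passed the filter on low counts (10 counts, scaled to the median library, in at least 2 libraries) and were tested, among them 9 fibrillar, 7 basement membrane, 5 collagen VI and 12 other genes. The 11 genes left out were Col2a1, Col4a3, Col6a5, Col9a1, Col9a2, Col10a1, Col13a1, Col19a1, Col22a1, Col24a1 and Col25a1. Col9a1, Col13a1 and Col19a1 were at 0 in every library, and 5 genes in all had no count above 3. The other 27 tested genes passed in libraries with and without TGF-beta, but 6, Col6a4, Col6a6, Col14a1, Col15a1, Col23a1 and Col28a1, passed only through libraries without it. Such a gene could be tested only if it was high there, so these 6 are described by their counts and their calls are not used as support. Averages of 20 or more CPM (counts scaled to a common library size, after TMM scaling between libraries) were reached by 19 genes, of which 8 were fibrillar, 4 basement membrane, 3 collagen VI and 4 other.

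Library totals lay between 19617874 and 30759317 counts. Prmt1 had 62.5 to 78.3 CPM in the 8 libraries with PRMT1 siRNA or both siRNAs and 143 to 272 CPM in the other 8. Trp53 had 54.2 to 73.6 CPM with p53 siRNA alone, 88.1 to 90.7 CPM with both siRNAs and 128 to 192 CPM in the other 8 libraries. It was thus reduced less with both siRNAs than with p53 siRNA alone. All 14 epicardial and mesothelial markers were detected, led by Upk3b and Wt1, but Aldh1a2, Krt8 and Krt19 reached at most 1.14, 1.59 and 1.59 CPM. The summed level of the 14 was 402 to 469 CPM in the 8 libraries with TGF-beta and 1480 to 1990 CPM in the 8 without. The 8 cardiomyocyte markers, 6 of 8 endothelial markers and 6 of 8 haematopoietic markers stayed under 1 CPM in every library. The endothelial Kdr and Tek reached 7.47 and 2.45 CPM, and the haematopoietic Csf1r and Cd68 2.83 and 1.48 CPM. Tie1 and Adgre1 were at 0. One library stood apart from its partner, p53 siRNA with TGF-beta replicate 2. The root mean square log2 difference within that pair was 0.805 over all genes tested and 0.527 over the collagen genes, against 0.341 to 0.426 and 0.202 to 0.329 in the other 7 groups. Results of that group are therefore given with and without this library where it decides them. The fit shares 1 estimate of the spread over all groups, so this library also bears on comparisons without that group. Several of those had more calls without it, as given with the dependence on the processing. Where any 1 library is left out, its group keeps only 1, so the test is weaker whichever library goes. A call lost in this way was not traced to the library left out.

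In untreated control cells the collagen messages were dominated by the fibrillar Col1a1, Col1a2, Col3a1 and Col5a2, followed per kilobase by Col6a1 and Col6a2. The fibrillar genes summed to 20395 ± 259 CPM and the collagen VI genes to 2164 ± 85.1 CPM (SD, n = 2). Per kilobase of transcript, Col1a2 averaged 1259 ± 10.98 CPM per kb (SD, n = 2) and Col1a1 1243 ± 0.401 CPM per kb, the chains of collagen I. Next on this scale stood Col3a1 at 642 ± 14.7, Col5a2 at 336 ± 14.1, Col6a1 at 292 ± 11.7 and Col6a2 at 194 ± 6.95 CPM per kb. These neighbours lay further apart than their spread, except Col1a2 and Col1a1, which differed by little more than the SD of Col1a2. The basement membrane gene Col4a5 followed at 89.3 ± 8.94 CPM per kb, then Col4a1 at 72.0 ± 6.71, the network-forming Col8a1 at 66.2 ± 4.06, Col4a2 at 53.02 ± 3.89, Col5a1 at 40.9 ± 1.75 and Col4a6 at 38.4 ± 4.78 CPM per kb. Col4a1 and Col8a1, and Col5a1 and Col4a6, were not separated by more than their spread. Col6a3, the remaining chain of the classical collagen VI trimer, was far below its partners at 1.30 ± 0.308 CPM per kb, and Col7a1, the anchoring fibril chain, stood at 0.226 ± 0.0284 CPM per kb.

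With TGF-beta and control siRNA the order per kilobase was Col1a1 at 2325 ± 122 CPM per kb, Col1a2 at 1805 ± 13.9, Col5a2 at 646 ± 12.4, Col3a1 at 388 ± 16.3 and Col5a1 at 240 ± 6.25 (SD, n = 2). Col6a1 stood at rank 12, at 41.6 ± 0.162 CPM per kb. The summed level of all 44 genes was 36699 ± 576 CPM with TGF-beta and 24945 ± 562 CPM without it in control cells. In PRMT1 siRNA cells it was 29881 ± 988 CPM with TGF-beta and 18257 ± 275 CPM without. In p53 siRNA cells the sums were 38219 ± 1539 and 23942 ± 46.7 CPM, and in cells with both siRNAs 29278 ± 860 and 17792 ± 414 CPM, again with TGF-beta first. The collagen VI sum ran the other way, at 352 ± 13.3 CPM with TGF-beta and 2164 ± 85.1 CPM without it in control cells. The plot of levels by library shows both directions at once.

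**Figure D1:**
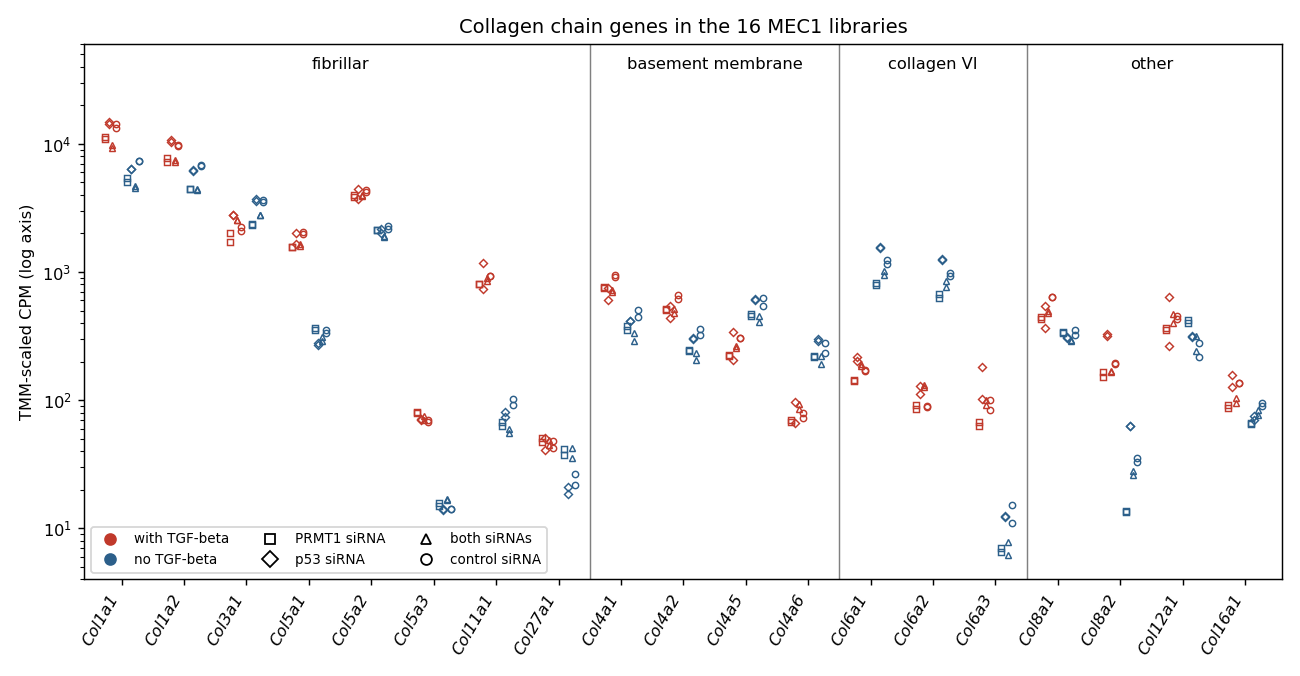
TMM-scaled CPM (log axis) of the 19 collagen genes that averaged 20 or more CPM, by class, where each symbol is 1 library, red with TGF-beta and blue without, with shapes for the siRNA treatments. Most fibrillar genes are higher with TGF-beta, while Col6a1, Col6a2, Col4a5 and Col4a6 are lower in all 8 libraries with TGF-beta.

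TGF-beta changed most of the tested collagen genes, and under control siRNA each class held genes that rose and genes that fell. Rising and falling were 7 and 2 fibrillar, 3 and 3 basement membrane, 1 and 3 collagen VI and 5 and 3 other genes. Under control siRNA 16 of the 33 tested genes rose and 11 fell, at an adjusted p under 0.05 (edgeR quasi-likelihood test, Benjamini-Hochberg over all genes). Of all 15494 genes tested, 38.4% were called in this comparison, 17.8% as higher and 20.6% as lower. Of the 11 that fell, 4 had passed the filter only without TGF-beta, which leaves 7. The median log2 change of the 33 collagen genes was 0.52, and 0.90 over the 27 that passed in both conditions, beside -0.01 over all genes tested. Under PRMT1 siRNA 13 rose and 8 fell, where 32.5% of all genes were called (16.3% higher, 16.2% lower). Under p53 siRNA 14 rose and 11 fell, where 45.3% were called (23.3% higher, 22.0% lower). With both siRNAs 13 rose and 8 fell, where 31.3% were called (15% higher, 16.3% lower). The collagen medians in these 3 treatments were 0.15, 0.11 and -0.20, beside -0.01, 0.02 and -0.02 over all genes. Over the 27 genes they were 0.39, 0.56 and 0.30, and 5, 8 and 6 of the 27 fell. The size of the fall of Col6a6, which had 0 or 1 count with TGF-beta, does not enter the medians of the 33 genes. Set to a floor of 3 counts per group it stayed below each median, so they could not change.

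Called higher under all 4 siRNA treatments were 13 genes, Col1a1, Col1a2, Col4a1, Col4a2, Col5a1, Col5a2, Col5a3, Col6a3, Col7a1, Col8a1, Col8a2, Col11a1 and Col16a1. Of all genes tested, 9% were called higher under all 4. Called lower under all 4 were 6 genes, where 9.93% of all genes were, and 4 of them passed the filter in both conditions, Col4a5, Col4a6, Col6a1 and Col6a2. The remaining 2 were Col6a6 and Col15a1. Col4a4, Col9a3, Col17a1, Col23a1 and Col26a1 were called under none, and Col18a1 was called in both directions. The 4 comparisons use separate libraries but share 1 estimate of the spread. Beside these changes the summed epicardial markers were lower with TGF-beta, as given above, and their part in the result was not tested. In bulk RNA fewer cells of a type and less RNA per cell cannot be told apart.

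**Figure D2:**
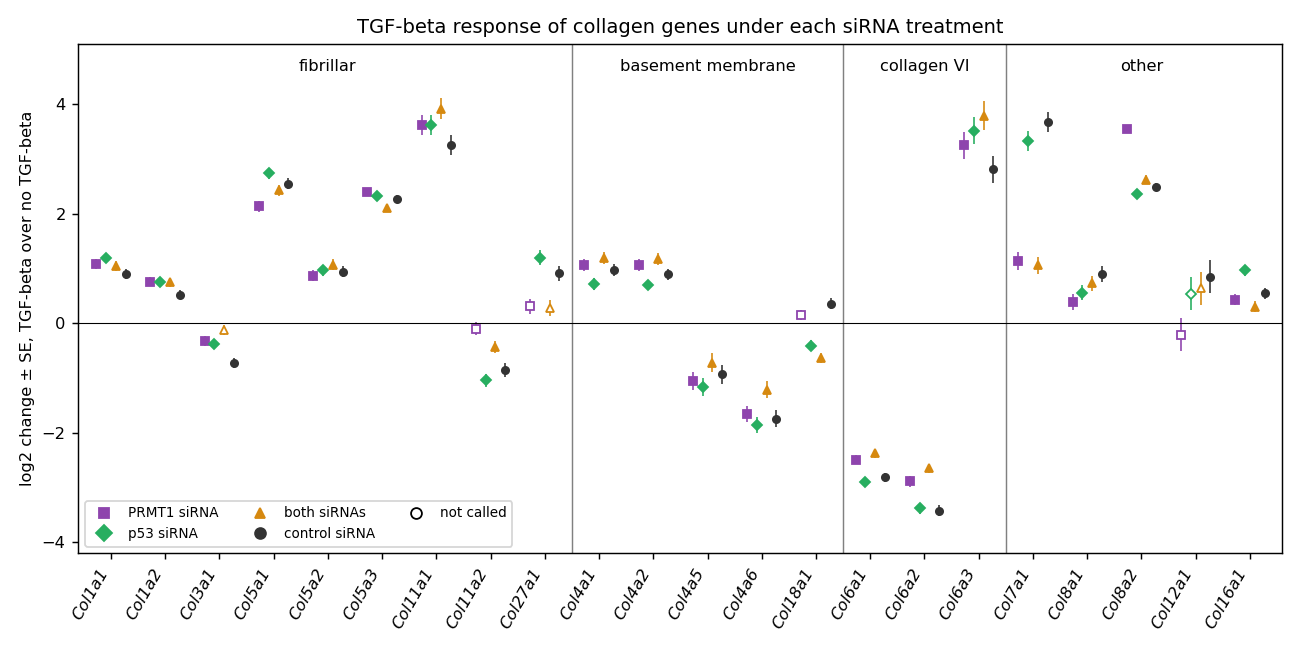
Log2 change with TGF-beta over no TGF-beta (y axis, ± SE of the fit) for collagen genes that averaged 5 or more CPM, by class, with 1 symbol per siRNA treatment; open symbols were not called. Col4a1 and Col4a2 lie above 0 and Col4a5 and Col4a6 below it, and Col6a3 lies near 3 while Col6a1 and Col6a2 lie near -3.

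Among the fibrillar genes, both collagen I genes and 4 collagen V and XI genes rose in control cells, while Col3a1 and Col11a2 fell. Col1a1, which encodes the more frequent chain of the collagen I trimer, had 14301 and 13275 CPM with TGF-beta, against 7375 and 7371 CPM without it, under control siRNA. Over all siRNA treatments it lay between 9302 and 14888 CPM (median 12314) in the 8 libraries with TGF-beta and between 4552 and 7375 CPM (median 5913) in the 8 without. No library with TGF-beta overlapped one without. Its log2 change was 0.90 ± 0.09 (SE of the fit, 2 libraries per group; adjusted p = 1.02e-05) under control siRNA, and 1.09, 1.19 and 1.05 under PRMT1, p53 and both siRNAs. Col1a2, the partner chain, had 9606 and 9711 CPM with TGF-beta, against 6694 and 6777 CPM without it, a log2 change of 0.52 ± 0.08 (adjusted p = 0.000414). The change of Col1a2 was 0.75 to 0.76 under the other 3 siRNA treatments.

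Col3a1, the chain of collagen III, moved the other way in control cells. It had 2095 and 2224 CPM with TGF-beta, against 3510 and 3625 CPM without it, and fell by 0.72 ± 0.09 on the log2 scale (adjusted p = 4.26e-05). Across treatments its ranges overlapped, 1724 to 2800 CPM with TGF-beta and 2334 to 3686 CPM without. The log2 change was -0.33 ± 0.09 under PRMT1 siRNA (adjusted p = 0.0124) and -0.38 ± 0.09 under p53 siRNA (adjusted p = 0.00351). With offsets that remove the trend of each library with transcript length, the change was -0.22 (adjusted p = 0.126) under PRMT1 siRNA and -0.21 (adjusted p = 0.119) under p53 siRNA. Leaving out 1 library of the PRMT1 siRNA groups ended its call there in 3 of 4 cases, without PRMT1 siRNA no TGF-beta replicate 1 or 2 or PRMT1 siRNA with TGF-beta replicate 1, with adjusted p up to 0.138. With both siRNAs Col3a1 was not called (log2 -0.12 ± 0.09, adjusted p = 0.358).

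Collagen V and XI chains join collagen I fibres as regulators of fibre diameter. Col5a1 had 2057 and 1983 CPM with TGF-beta, against 334 and 355 CPM without it, in control cells. Its 8 libraries with TGF-beta, 1566 to 2057 CPM, lay well above the 8 without, 269 to 365 CPM. The log2 change of Col5a1 was 2.55 ± 0.10 (adjusted p = 4.82e-09). It overlaps the opposite-strand genes 2810430I11Rik, by 99 bases, and Gm13372, by 113, whose reads cannot be told apart without strand and which had total counts of 675 and 760. Col5a2, its usual partner, had 4217 and 4333 CPM against 2160 and 2292 CPM, and rose by 0.94 ± 0.10 (adjusted p = 1.16e-05). Col5a3, a chain of rarer collagen V trimers, had 67.1 and 69.5 CPM against 14.2 and 14.1 CPM, and rose by 2.27 ± 0.07 (adjusted p = 4.43e-10). Col11a1 had 924 and 926 CPM against 91.9 and 102 CPM, a rise of 3.25 ± 0.18 (adjusted p = 5.62e-08), with 732 to 1173 CPM in all 8 libraries with TGF-beta and 55.2 to 102 CPM in the 8 without. The call of each of these 4 genes held without each library in turn.

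Col11a2, a partner chain of Col11a1, went down where Col11a1 went up. Col11a2 had 6.32 and 7.11 CPM with TGF-beta, against 10.9 and 13.4 CPM without it, and fell by 0.85 ± 0.13 (adjusted p = 0.000201) in control cells. It fell by 1.04 ± 0.12 under p53 siRNA and by 0.44 ± 0.11 with both siRNAs, the last lost without both siRNAs no TGF-beta replicate 1 or both siRNAs with TGF-beta replicate 1 (adjusted p up to 0.107), and was -0.10 ± 0.12 under PRMT1 siRNA (not called, adjusted p = 0.546). Col27a1, which encodes a thin-fibril collagen of cartilage and other tissues, had 42.3 and 48.0 CPM with TGF-beta, against 21.7 and 26.4 CPM without it, in control cells. It rose by 0.91 ± 0.14 there (adjusted p = 0.00029) and by 1.20 ± 0.14 under p53 siRNA. Under PRMT1 siRNA and both siRNAs its changes of 0.31 and 0.28 were not called.

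The collagen IV genes split by genomic pair. Col4a1 (chr8:11198423-11312826, minus strand) and Col4a2 (chr8:11312805-11449287, plus strand; mm10 for all coordinates here) encode the chains of the ubiquitous collagen IV trimer and lie head to head, with first exons that overlap by 22 bases. Because the annotated exons overlap and the use of strand in counting is not given, reads in those 22 bases cannot be told apart. Col4a6 (chrX:141165403-141474076, minus strand) and Col4a5 (chrX:141475385-141689234, plus strand) also lie head to head, with 1342 bases between their RefSeq start sites. Their products form trimers found in specialised basement membranes, among them that of smooth muscle.

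Col4a1 had 953 and 917 CPM with TGF-beta, against 445 and 508 CPM without it, in control cells, and 599 to 953 against 291 to 508 CPM over all treatments. Col4a2 had 661 and 614 CPM against 324 and 360 CPM, and 440 to 661 against 205 to 360 CPM over all treatments. In both genes every library with TGF-beta was above every library without. The log2 changes were 0.97 ± 0.11 for Col4a1 (adjusted p = 3.22e-05) and 0.90 ± 0.10 for Col4a2 (adjusted p = 3.29e-05). Across the 4 siRNA treatments Col4a1 rose by 0.71 to 1.19 and Col4a2 by 0.70 to 1.18.

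Col4a5 had 305 and 307 CPM with TGF-beta, against 543 and 626 CPM without it, in control cells, and 206 to 341 against 404 to 626 CPM over all treatments. Col4a6 had 73.1 and 79.2 CPM against 233 and 278 CPM, and 66.3 to 96.3 against 191 to 301 CPM over all treatments. Here every library with TGF-beta was below every library without. Col4a5 fell by 0.93 ± 0.17 (adjusted p = 0.00113) and Col4a6 by 1.74 ± 0.15 (adjusted p = 2.95e-06) in control cells. With both siRNAs the fall of Col4a5, 0.72 ± 0.17, was lost without both siRNAs no TGF-beta replicate 2 or both siRNAs with TGF-beta replicate 1 (adjusted p up to 0.0546).

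The bases just before the start sites of the falling pair, which face each other, read as follows, 5′ to 3′ on the strand of the gene, from RefSeq (GRCm38.p6). The Col4a6 window is chrX:141474077-141474326 on the minus strand, and that of Col4a5 is chrX:141475169-141475384 on the plus strand, ending where the GENCODE gene begins. Capitals mark the GC box GGGCGG, a motif bound by Sp1-family factors, or its reverse complement CCGCCC.
Col4a6: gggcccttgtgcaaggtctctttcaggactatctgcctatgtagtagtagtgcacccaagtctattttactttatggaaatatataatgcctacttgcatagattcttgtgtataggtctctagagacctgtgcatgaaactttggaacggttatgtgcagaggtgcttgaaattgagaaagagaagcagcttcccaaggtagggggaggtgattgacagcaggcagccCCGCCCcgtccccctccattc
Col4a5: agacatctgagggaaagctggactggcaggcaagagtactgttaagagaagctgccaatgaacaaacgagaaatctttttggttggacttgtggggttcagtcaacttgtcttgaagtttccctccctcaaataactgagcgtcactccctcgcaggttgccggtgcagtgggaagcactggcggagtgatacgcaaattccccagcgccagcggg
The 250 bases before Col4a6 held 1 GC box. The whole window of 250 bases before the RefSeq start of Col4a5 also held 1, in the 34 bases that lie inside the GENCODE gene and are not shown. Of all 32851 RefSeq windows of 250 bases, 32.7% held one on either strand. Neither sequence held CAGAC or its reverse complement GTCTG, a motif bound by SMAD proteins, the transcription factors of TGF-beta signalling, which 42.2% of all windows held.

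The other basement membrane genes are the multiplexins Col15a1 and Col18a1 and the minor chain gene Col4a4. Col15a1 was low, at 33 counts in all over the 8 libraries with TGF-beta and 112 over the 8 without. It passed the filter only through 7 libraries without TGF-beta, so its counts are only described and no test is given. In each pair of groups both libraries with TGF-beta had fewer counts, 2 and 3 against 11 and 9 under control siRNA and 4 and 5 against 15 and 23 under p53 siRNA. Col18a1, the source of endostatin, is described with the siRNA treatments.

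Collagen VI showed the widest split. Col6a1 (chr10:76708792-76726168) and Col6a2 (chr10:76595762-76623630), neighbours on the minus strand, and Col6a3 (chr1:90765923-90843971, minus strand) encode the chains of its classical trimer. Col6a1 had 170 and 171 CPM with TGF-beta, against 1163 and 1231 CPM without it, in control cells. Its 8 libraries with TGF-beta lay between 142 and 218 CPM and its 8 without between 789 and 1579 CPM. Col6a1 fell by 2.81 ± 0.08 on the log2 scale (adjusted p = 3.38e-10), with log2 changes between -2.89 and -2.37 over the 4 treatments.

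Col6a2 followed Col6a1. It had 88.2 and 90.1 CPM with TGF-beta, against 929 and 977 CPM without it, and 84.9 to 132 against 624 to 1269 CPM over all treatments. Col6a2 fell by 3.42 ± 0.10 (adjusted p = 3.75e-10) in control cells, with log2 changes between -3.42 and -2.65 over the 4 treatments. Col6a3 did the opposite, with 83.9 and 99.8 CPM with TGF-beta, against 10.9 and 15.3 CPM without it, and 62.8 to 181 against 6.18 to 15.3 CPM over all treatments. It rose by 2.81 ± 0.24 (adjusted p = 2.71e-06) in control cells and by 3.25 to 3.79 under the other treatments. The highest value, 181 CPM, was in p53 siRNA with TGF-beta replicate 1, and its partner, the library that stood apart, had 103 CPM.

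Messages of the alternative collagen VI chains, which can take the place of the Col6a3 product, were scarce. Col6a6 had counts of 0 and 1 with TGF-beta, against 11 and 10 without it, under control siRNA, 0 and 0 against 11 and 5 under PRMT1 siRNA, 1 and 0 against 31 and 34 under p53 siRNA, and 0 and 0 against 9 and 4 with both siRNAs. Every library with TGF-beta was below every library without, but the gene passed the filter only through 5 libraries without TGF-beta, and no fold or test is given. Col6a5, which was not tested, had 0 or 1 count in every library with TGF-beta and 1 to 7 counts in every library without. Col6a4, a pseudogene in humans, had counts of 3 and 1 with TGF-beta, against 13 and 9 without it, under PRMT1 siRNA, and 3 and 5 against 11 and 9 under control siRNA. Over all treatments its ranges overlapped, 0.0348 to 0.310 CPM with TGF-beta and 0.200 to 0.507 CPM without.

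The bases before the start of the 3 classical chains are shown because these genes moved furthest apart, 5′ to 3′ on the minus strand, from RefSeq (GRCm38.p6). The windows are chr1:90843972-90844221 for Col6a3, chr10:76726169-76726294 for Col6a1, ending where the GENCODE gene begins, and chr10:76623631-76623880 for Col6a2. Capitals mark CAGAC or GTCTG and the GC box GGGCGG or CCGCCC.
Col6a3: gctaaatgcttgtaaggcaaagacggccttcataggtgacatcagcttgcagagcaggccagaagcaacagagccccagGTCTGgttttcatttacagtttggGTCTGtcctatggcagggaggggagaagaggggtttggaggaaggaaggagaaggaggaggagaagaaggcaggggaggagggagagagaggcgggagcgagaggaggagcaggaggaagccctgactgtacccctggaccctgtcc
Col6a1: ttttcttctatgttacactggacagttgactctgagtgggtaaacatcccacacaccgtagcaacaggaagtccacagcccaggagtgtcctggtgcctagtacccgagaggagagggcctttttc
Col6a2: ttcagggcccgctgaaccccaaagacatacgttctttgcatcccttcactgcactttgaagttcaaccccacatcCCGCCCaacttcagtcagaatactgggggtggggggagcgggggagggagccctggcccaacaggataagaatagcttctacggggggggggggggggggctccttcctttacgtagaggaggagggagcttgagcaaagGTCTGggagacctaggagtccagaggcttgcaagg
The rising Col6a3 held CAGAC at 2 places and no GC box, the falling Col6a2 held each motif at 1 place, and the 126 bases of Col6a1 held neither, nor did its whole window of 250 bases. RefSeq has another Col6a2 start, whose window (chr10:76623405-76623654) lies mostly inside the GENCODE gene, held 3 GC boxes and no CAGAC, and is not shown. With CAGAC in 42.2% of all windows of 250 bases, these matches describe the sequences and name no binding site. Over all collagen genes, 35 had a RefSeq window, 38 windows in all, of which 17 held CAGAC and 22 the GC box.

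Among the other collagens, the network-forming collagen VIII and anchoring fibril collagen VII genes rose. Col8a1 had 633 and 633 CPM with TGF-beta, against 324 and 353 CPM without it, and rose by 0.90 ± 0.14 (adjusted p = 0.000279) in control cells. Its rise of 0.39 ± 0.14 under PRMT1 siRNA was marginal (adjusted p = 0.0499) and was lost without any 1 of the 4 libraries (adjusted p 0.127 to 0.181). Col8a2, which encodes the partner chain of Col8a1 (chr4:126286793-126314330, plus strand), had 190 and 197 CPM with TGF-beta, against 35.7 and 33.0 CPM without it. It rose by 2.49 ± 0.08 (adjusted p = 5.54e-10). Col7a1 (chr9:108953586-108984875, plus strand) had 27.1 and 26.0 CPM with TGF-beta, against 1.90 and 2.27 CPM without it, a rise of 3.67 ± 0.18 (adjusted p = 2.03e-08), the largest rise of a tested collagen gene in control cells. With both siRNAs its rise, described with the interactions, was 0.84 with length offsets (adjusted p = 0.0508).

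A pair of fibril-associated genes, whose products decorate fibres, complete the abundant set. Col16a1 had 135 and 135 CPM with TGF-beta, against 95.0 and 90.2 CPM without it, and rose by 0.55 ± 0.10 (adjusted p = 0.000924) in control cells. Its rise of 0.43 under PRMT1 siRNA held only without PRMT1 siRNA with TGF-beta replicate 1 (adjusted p otherwise up to 0.054), and that of 0.30 with both siRNAs was lost without any 1 library (adjusted p 0.0592 to 0.213) and with length offsets (adjusted p = 0.225). Col12a1 had 455 and 431 CPM with TGF-beta, against 216 and 277 CPM without it. Its rise of 0.85 ± 0.30 in control cells (adjusted p = 0.0419) was lost without any 1 of the 4 libraries (adjusted p 0.0662 to 0.227). Col12a1 was not called under the other treatments, and the pair with p53 siRNA and TGF-beta differed most, at 642 and 266 CPM, the lower being the library that stood apart. The scarce Col20a1 fell in control cells by 0.94 ± 0.20 and held without each library. Col14a1 had counts of 4 and 6 with TGF-beta, against 13 and 17 without it, and Col28a1 had 4 and 2 against 12 and 11, under control siRNA. Under PRMT1 siRNA Col14a1 had 6 and 7 with TGF-beta, against 3 and 7 without it. Over all treatments the ranges of Col28a1 overlapped, 0.0847 to 0.235 CPM with TGF-beta and 0.192 to 0.532 CPM without.

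Ratios of chains that can share a trimer or a network show how the mixture of messages moved, in CPM per kb of each gene. Col1a1 over Col1a2 was 1.16 to 1.37 in the 8 libraries with TGF-beta and 0.916 to 1.11 in the 8 without. Col3a1 over Col1a1 was 0.156 to 0.293 with TGF-beta and 0.457 to 0.649 without. Col5a1 over Col5a2 was 0.310 to 0.384 with TGF-beta and 0.102 to 0.134 without. In these 3 pairs the libraries with and without TGF-beta did not overlap.

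Col4a1 over Col4a2 was 1.33 to 1.46 with TGF-beta and 1.33 to 1.48 without, so this pair kept 1 ratio while both genes rose. Col4a1 over Col4a5 was 2.19 to 3.44 with TGF-beta and 0.665 to 0.810 without, and Col4a5 over Col4a6 was 2.88 to 4.24 with it and 2.05 to 2.37 without. Col6a3 over Col6a1 was 0.177 to 0.337 with TGF-beta and 0.00264 to 0.00505 without. Col6a1 over Col6a2 was 1.74 to 2.34 with TGF-beta and 1.42 to 1.51 without. Col8a1 over Col8a2 was 0.945 to 2.82 with TGF-beta and 4.15 to 21.0 without. Apart from Col4a1 over Col4a2, the ranges of these 6 pairs were separate. The pairs here and in the paragraph before are built from genes whose changes with TGF-beta are given above. Their separation restates those changes and is no further support for them. How many other pairs of genes would be separate was not counted.

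**Figure D3:**
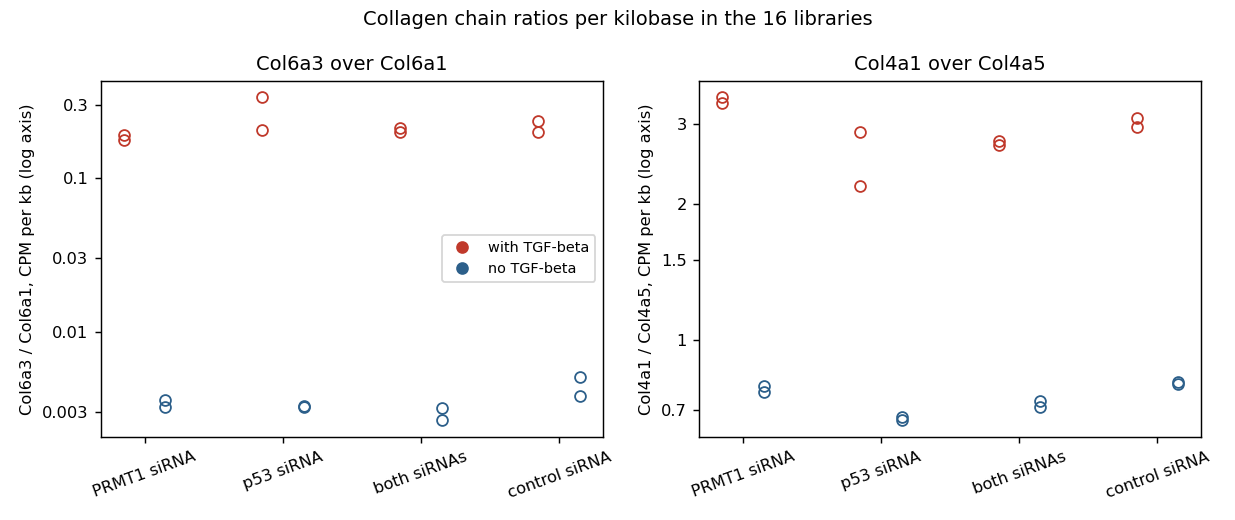
Ratio of CPM per kb (log axes) of Col6a3 over Col6a1 (left) and Col4a1 over Col4a5 (right) in each of the 16 libraries (circles, red with TGF-beta, blue without). Col6a3 over Col6a1 is 0.177 to 0.337 with TGF-beta and 0.00264 to 0.00505 without, and Col4a1 over Col4a5 is above 2.19 with it and at most 0.810 without.

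PRMT1 siRNA without TGF-beta lowered many of the abundant collagen genes. PRMT1 is an enzyme that adds methyl groups to arginines of proteins. Of the 33 tested genes 3 rose and 11 fell against control siRNA, where 10.3% of all genes were called, 4.48% as higher and 5.85% as lower. The collagen median was -0.35, beside 0.01 over all genes. Collagen I, III, IV and VI genes were among those that fell. Of these 14 calls, 5 held without each library in turn. Without Col14a1, which had counts of 3 and 7 with PRMT1 siRNA and 13 and 17 with control siRNA, 10 genes fell. How many calls held without each library was not counted over all genes, here or in the comparisons below. Counts of calls that held therefore do not set collagen genes apart from other genes.

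Col8a2 had 13.5 and 13.7 CPM with PRMT1 siRNA, against 35.7 and 33.0 CPM with control siRNA. This was the largest fall among the abundant collagen genes, 1.33 ± 0.08 on the log2 scale (adjusted p = 8.48e-06). Col1a2 had 4443 and 4402 CPM, against 6694 and 6777 CPM with control siRNA, and fell by 0.61 ± 0.08 (adjusted p = 0.00123). Col3a1 had 2334 and 2351 CPM, against 3510 and 3625 CPM with control siRNA, and fell by 0.61 ± 0.09 (adjusted p = 0.00155). Col6a1 had 789 and 823 CPM, against 1163 and 1231 CPM with control siRNA, and fell by 0.57 ± 0.07 (adjusted p = 0.000703). Col18a1 rose, with 11.04 and 12.5 CPM against 6.33 and 6.58 CPM with control siRNA, by 0.87 ± 0.10 (adjusted p = 0.000397). The pairs of libraries did not overlap in any of these 5 genes. They were picked by calls that held without each library, so this adds no support to those calls.

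The calls of 8 genes, beside Col14a1, were lost without at least 1 library. Col1a1 fell by 0.49 ± 0.09, to 5446 and 5075 CPM against 7375 and 7371 CPM with control siRNA (adjusted p = 0.00669), and held only without PRMT1 siRNA replicate 1 (adjusted p otherwise up to 0.0937). Col6a2 fell by 0.56 ± 0.09 and was lost without PRMT1 siRNA replicate 1 (adjusted p = 0.0538). Col4a2 fell by 0.49 ± 0.10 and held only without control siRNA replicate 1 (adjusted p otherwise up to 0.0977). Col7a1 rose by 1.06 ± 0.19 and Col27a1 by 0.72 ± 0.14. The first was lost without control siRNA replicate 1 or PRMT1 siRNA replicate 1 (adjusted p up to 0.0689), and the second without control siRNA replicate 1 or PRMT1 siRNA replicate 2 (up to 0.0929). With length offsets Col7a1 rose by 0.93, with adjusted p = 0.121. Col4a1 (-0.39), Col6a3 (-0.94) and Col16a1 (-0.49) were lost without any 1 of the 4 libraries, with adjusted p from 0.0538 to 0.261.

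**Figure D4:**
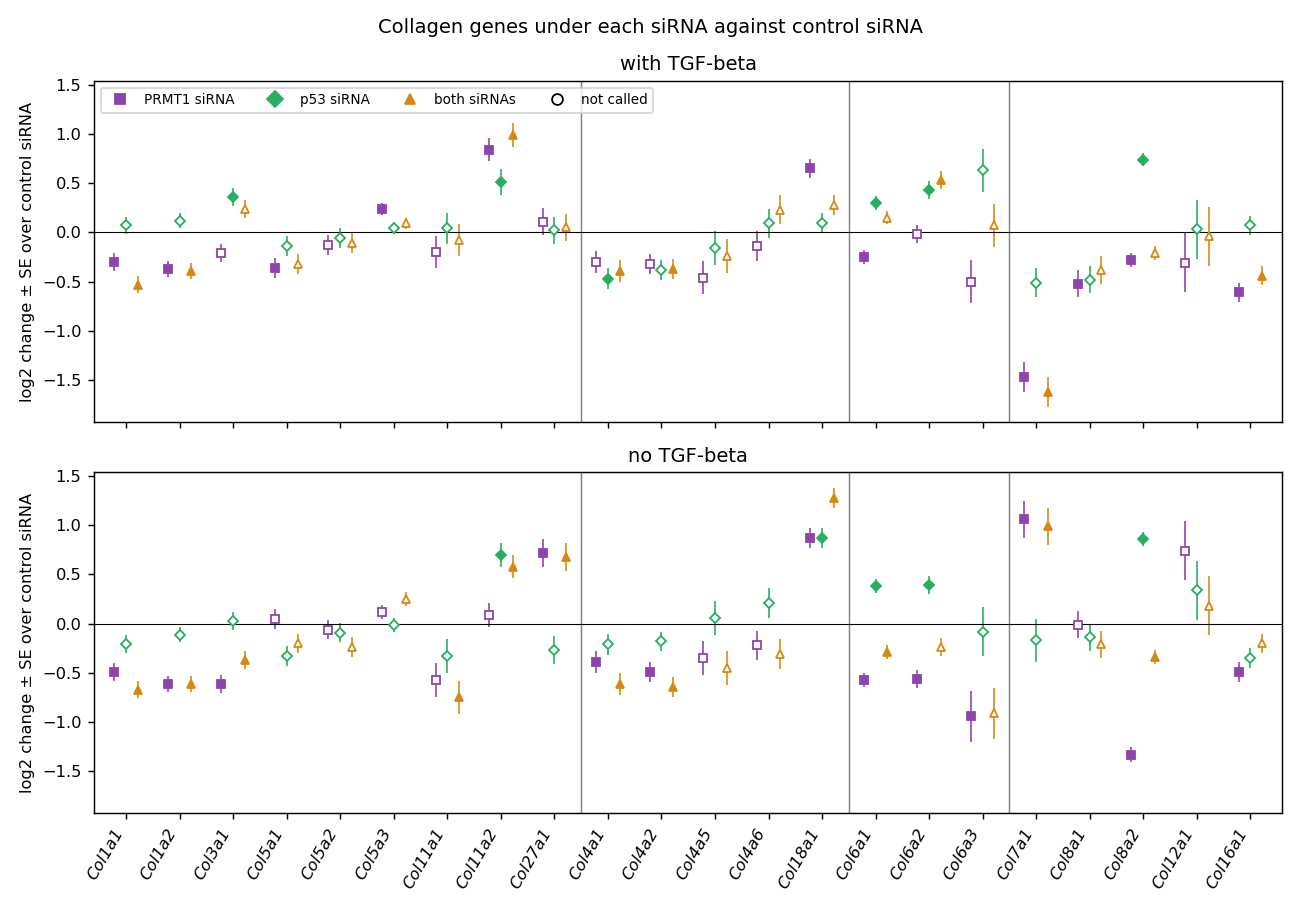
Log2 change of each siRNA treatment over control siRNA (y axis, ± SE of the fit) with TGF-beta (top) and without (bottom), for the 19 abundant collagen genes and Col7a1, Col11a2 and Col18a1; open symbols were not called. Without TGF-beta Col8a2 lies at -1.33 with PRMT1 siRNA and at 0.86 with p53 siRNA, and with TGF-beta Col7a1 lies near -1.5 with PRMT1 siRNA and both siRNAs.

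p53 siRNA without TGF-beta raised 5 collagen genes and lowered none, where 2.47% of all genes were called, 1.17% as higher and 1.29% as lower. At an unadjusted p under 0.05 there were 11 collagen genes in either direction, a share of the 33 to be read beside 14% of all genes, and DESeq2 called 8. p53 is a transcription factor that restrains growth and responds to stress. Col8a2 had 62.5 and 62.4 CPM with p53 siRNA, against 35.7 and 33.0 CPM with control siRNA, and rose by 0.86 ± 0.07 (adjusted p = 0.000361). Col18a1 had 12.3 and 11.3 CPM, against 6.33 and 6.58 CPM, and rose by 0.87 ± 0.10 (adjusted p = 0.00124). These 2 calls held without each library in turn.

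Col6a1 had 1579 and 1526 CPM with p53 siRNA, against 1163 and 1231 CPM with control siRNA (log2 0.38 ± 0.07, adjusted p = 0.0212). Col6a2 had 1269 and 1230 CPM, against 929 and 977 CPM (log2 0.39 ± 0.09, adjusted p = 0.0436). Both calls were lost without any 1 library, with adjusted p of 0.0952 to 0.240 and 0.170 to 0.344, and that of Col6a2 with length offsets (adjusted p = 0.0583). Col11a2 rose by 0.70 ± 0.12 (adjusted p = 0.0108) and held only without control siRNA replicate 2 (adjusted p otherwise up to 0.154). The collagen I and III genes gave no call, with log2 changes of -0.21 ± 0.09 for Col1a1, -0.11 ± 0.08 for Col1a2 and 0.03 ± 0.09 for Col3a1.

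With both siRNAs and no TGF-beta, collagen I and the Col4a1 and Col4a2 pair were lower and Col18a1 higher. Of the 33 genes 4 rose and 8 fell, where 4.45% of all genes were called, 2.31% as higher and 2.14% as lower, and 3 calls held without each library in turn. Col1a1 had 4552 and 4715 CPM, against 7375 and 7371 CPM with control siRNA, and fell by 0.67 ± 0.09 (adjusted p = 0.00252). Col1a2 had 4412 and 4387 CPM, against 6694 and 6777 CPM, and fell by 0.61 ± 0.08 (adjusted p = 0.00259). Col18a1 had 15.3 and 16.0 CPM, against 6.33 and 6.58 CPM, and rose by 1.28 ± 0.10 (adjusted p = 0.000145).

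Col4a1 and Col4a2 fell by 0.61 ± 0.11 and 0.64 ± 0.10 with both siRNAs, lost without control siRNA replicate 2 or both siRNAs replicate 1 (adjusted p up to 0.121 and 0.0739). Col11a2 rose by 0.58 ± 0.12 and held only without control siRNA replicate 2 (adjusted p otherwise up to 0.165). Lost without any 1 library were Col3a1 (-0.37), Col6a1 (-0.29), Col8a2 (-0.34), Col11a1 (-0.75), Col7a1 (0.99) and Col27a1 (0.68), with adjusted p from 0.051 to 0.273. Length offsets also ended the calls of Col3a1 (adjusted p = 0.0769) and Col7a1 (adjusted p = 0.0771).

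Adding p53 siRNA to PRMT1 siRNA gave 1 call among the collagen genes without TGF-beta, Col8a2. Of all genes 0.865% were called, 0.568% as higher and 0.297% as lower. Col8a2 had 26.1 and 28.2 CPM with both siRNAs, against 13.5 and 13.7 CPM with PRMT1 siRNA alone, a rise of 0.99 ± 0.08 (adjusted p = 0.000301) that held without each library in turn. DESeq2 called 6 collagen genes here. Without the library that stood apart, which is in neither of these comparisons, edgeR called more collagen genes, with and without TGF-beta. The shares of all genes called under these other settings are not given here. Trp53 was also reduced less with both siRNAs than with p53 siRNA alone, as given above. Col18a1 was 0.41 ± 0.09 higher (not called, adjusted p = 0.0689), Col6a1 0.28 ± 0.07 (adjusted p = 0.0972) and Col6a2 0.32 ± 0.09 (adjusted p = 0.118). Col1a1 differed by -0.18 ± 0.09 (not called, adjusted p = 0.367). With TGF-beta the calls were Col6a1 (0.40 ± 0.07, adjusted p = 0.0425) and Col6a2 (0.55 ± 0.09, adjusted p = 0.032), where 0.452% of all genes were called, 0.219% as higher and 0.232% as lower. Both were lost without any 1 of the 4 libraries (adjusted p 0.237 to 0.475 and 0.157 to 0.475), and Col8a2 gave no call.

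In cells given TGF-beta, PRMT1 siRNA raised 5 collagen genes and lowered 8, where 15.7% of all genes were called, 9.13% as higher and 6.53% as lower. Without Col23a1, for which counts are given with the lesser calls, 4 rose. The collagen median was -0.25, beside 0.02 over all genes, and 4 calls held without each library in turn. Col7a1 had 9.32 and 9.81 CPM with PRMT1 siRNA, against 27.1 and 26.0 CPM with control siRNA, and fell by 1.47 ± 0.15 (adjusted p = 0.000129). Col16a1 had 86.3 and 91.2 CPM, against 135 and 135 CPM, and fell by 0.61 ± 0.10 (adjusted p = 0.0025). Col11a2 had 11.8 and 12.3 CPM, against 6.32 and 7.11 CPM, and rose by 0.84 ± 0.12 (adjusted p = 0.0014). Col18a1 had 13.5 and 12.6 CPM, against 7.90 and 8.64 CPM, and rose by 0.65 ± 0.10 (adjusted p = 0.00149).

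Col1a1, Col1a2, Col5a1, Col6a1, Col8a1 and Col8a2 also fell with PRMT1 siRNA and TGF-beta, with log2 changes between -0.52 and -0.25, and Col5a3 rose by 0.24. All 7 calls were lost without any 1 library (adjusted p 0.0531 to 0.223). With length offsets the change of Col1a1 was -0.16 (adjusted p = 0.373), beside -0.30 without them, that of Col5a1 was -0.11 (adjusted p = 0.487), beside -0.36, and that of Col5a3 was 0.39 (adjusted p = 0.0291). Col20a1, a fibril-associated gene at 1.03 to 3.26 CPM, rose by 1.06 ± 0.20 and was lost without control siRNA replicate 2 or PRMT1 siRNA replicate 2 (adjusted p up to 0.0616). Col23a1 had counts of 8 and 12 with PRMT1 siRNA, against 0 and 2 with control siRNA. It passed the filter only through the 4 libraries with PRMT1 siRNA or both siRNAs and no TGF-beta, so no test is given for it.

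p53 siRNA with TGF-beta gave 5 higher calls and 1 lower call, where 5.21% of all genes were called, 2.82% as higher and 2.39% as lower. Col8a2 had 317 and 327 CPM with p53 siRNA, against 190 and 197 CPM with control siRNA, and rose by 0.74 ± 0.07 (adjusted p = 0.000306), held without each library in turn. Col6a1 had 218 and 202 CPM, against 170 and 171 CPM (log2 0.30 ± 0.07), and Col6a2 had 112 and 129 CPM, against 88.2 and 90.1 CPM (log2 0.43 ± 0.09). Both were lost without control siRNA replicate 1 or 2 (adjusted p up to 0.207 and 0.158). Col3a1 (0.36), Col11a2 (0.51) and Col4a1 (-0.47) lost their calls without either control siRNA library and without p53 siRNA replicate 2, the library that stood apart, where adjusted p was 0.0524, 0.169 and 0.0798 and the change of Col4a1 was -0.31. With length offsets the change of Col3a1 was 0.57 and that of Col4a1 -0.19 (adjusted p = 0.0767). Without p53 siRNA replicate 1, which leaves only the library that stood apart in its group, 14 collagen genes were called in place of 6.

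With both siRNAs and TGF-beta, 4 genes rose and 6 fell, where 13.1% of all genes were called, 7.71% as higher and 5.35% as lower, and 3 calls held without each library in turn. Col7a1 had 9.33 and 7.94 CPM, against 27.1 and 26.0 CPM with control siRNA, and fell by 1.62 ± 0.15 (adjusted p = 5.77e-05). Col11a2 had 12.8 and 13.9 CPM, against 6.32 and 7.11 CPM, and rose by 0.99 ± 0.12 (adjusted p = 0.000424). Col6a2 had 126 and 132 CPM, against 88.2 and 90.1 CPM, and rose by 0.53 ± 0.09 (adjusted p = 0.00293). Col1a1 had 9302 and 9820 CPM, against 14301 and 13275 CPM, and fell by 0.53 ± 0.09 (adjusted p = 0.00328), lost without both siRNAs replicate 1 (adjusted p = 0.0627). Col1a2 (-0.39), Col4a1 (-0.39), Col4a2 (-0.37), Col16a1 (-0.44) and Col20a1 (0.83) were lost without any 1 library (adjusted p 0.0511 to 0.251). Col23a1, which is the remaining one of the 4 that rose, had counts of 10 and 13, against 0 and 2, and is not tested for the reason given with PRMT1 siRNA.

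Whether an siRNA changed the TGF-beta response itself was tested as an interaction, for which few collagen genes passed. For PRMT1 siRNA 2.08% of all genes were called (1.3% higher, 0.781% lower) and 3 collagen genes, Col7a1, Col8a2 and Col11a2. The TGF-beta response of Col7a1 was 1.14 ± 0.16 with PRMT1 siRNA and 3.67 ± 0.18 with control siRNA, a difference of -2.53 ± 0.24 (adjusted p = 0.000605). Its libraries with PRMT1 siRNA were both lower with TGF-beta and higher without TGF-beta than those with control siRNA. The response of Col8a2 was 3.55 ± 0.08 with PRMT1 siRNA and 2.49 ± 0.08 with control siRNA, a difference of 1.06 ± 0.10 (adjusted p = 0.000684). These 2 held without each of the 8 libraries in turn, while Col11a2 (0.76 ± 0.17, adjusted p = 0.0476) was lost without any 1 (adjusted p 0.052 to 0.203).

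With both siRNAs 1.26% of all genes were called (0.865% higher, 0.394% lower) and 4 collagen genes. The response of Col7a1 was 1.06 ± 0.16 with both siRNAs and 3.67 ± 0.18 with control siRNA (difference -2.61 ± 0.24, adjusted p = 0.000556). The response of Col18a1 was -0.64 ± 0.09 with both siRNAs and 0.36 ± 0.10 with control siRNA (difference -1.0 ± 0.14, adjusted p = 0.00462). Both calls held without each of the 8 libraries. The rise of Col18a1 under control siRNA alone held only without control siRNA with TGF-beta replicate 1 (adjusted p otherwise up to 0.134) and was lost with length offsets (adjusted p = 0.0877). Col6a2 (0.77 ± 0.13, adjusted p = 0.0129) held without 3 of the 8 libraries. It was lost without control siRNA no TGF-beta replicate 2, either control siRNA library with TGF-beta, both siRNAs no TGF-beta replicate 1 or both siRNAs with TGF-beta replicate 2 (adjusted p up to 0.085). Col3a1 (0.61 ± 0.12, adjusted p = 0.0411) was lost without any 1 (adjusted p 0.0899 to 0.205).

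For p53 siRNA 1.02% of all genes were called (0.452% higher, 0.568% lower) and 1 collagen gene, Col18a1. Its TGF-beta response was -0.41 ± 0.10 with p53 siRNA (-0.25 with length offsets) and 0.36 ± 0.10 with control siRNA, a difference of -0.77 ± 0.14 (adjusted p = 0.0302). The call held only without either p53 siRNA library with TGF-beta, so also without the one that stood apart, and was lost without any other library (adjusted p up to 0.166) and with length offsets (-0.53, adjusted p = 0.124). DESeq2 called 4 collagen genes here. The interaction of p53 siRNA for Col8a2 was -0.13 ± 0.10 (adjusted p = 0.451) and for Col7a1 -0.34 ± 0.26 (adjusted p = 0.429).

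**Figure D5:**
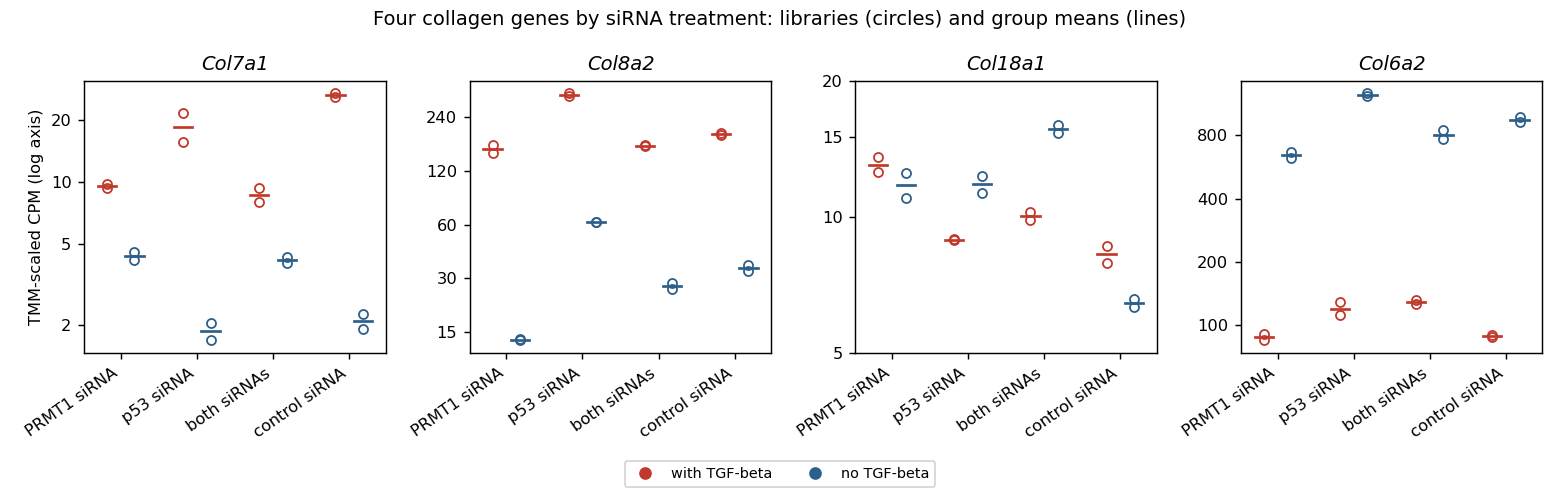
TMM-scaled CPM (log axes) of Col7a1, Col8a2, Col18a1 and Col6a2 in each siRNA treatment, red with TGF-beta and blue without; circles are libraries and lines group means. Col7a1 with TGF-beta is at 7.94 to 9.81 CPM with PRMT1 siRNA or both siRNAs and at 26.0 and 27.1 CPM with control siRNA, and Col18a1 is below its untreated level with TGF-beta in p53 siRNA and both siRNAs.

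Genes whose products fold, modify, secrete and cross-link collagen were followed as a list of 36, of which 34 were tested. With TGF-beta 21 rose and 3 fell under control siRNA, 20 were called, all higher, under PRMT1 siRNA, 24 rose and 3 fell under p53 siRNA, and 22 rose and 3 fell with both siRNAs. Of all genes 38.4%, 32.5%, 45.3% and 31.3% were called in these comparisons. The list medians were 0.44, 0.45, 0.53 and 0.46, beside the medians near 0 over all genes given above. The lowest adjusted p-values under control siRNA were those of Pcolce2, Bmp1, Plod2, Loxl2, Colgalt1 and Lox. Pcolce2, which enhances cleavage of the C-propeptide, had 137 and 136 CPM with TGF-beta, against 11.9 and 10.1 CPM without it, and rose by 3.63 ± 0.13. Bmp1, the protease that makes that cut, rose by 1.54 ± 0.08. The cross-linking enzyme genes Lox and Loxl2 rose by 1.46 ± 0.13 and 2.00 ± 0.13, the lysyl hydroxylase gene Plod2 by 1.53 ± 0.10, and the galactosyltransferase gene Colgalt1 by 0.82 ± 0.06.

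PRMT1 siRNA lowered members of the same list, 12 of 34 with 1 higher without TGF-beta, and 9 with 1 higher with TGF-beta. Of all genes 5.85% and 6.53% were called lower there. The list medians were -0.28 and -0.21. Without TGF-beta the lowest adjusted p-values were those of P3h1, a prolyl hydroxylase gene (-0.61 ± 0.08), Adamts14, an N-propeptidase gene (-0.58 ± 0.09), Loxl1 (-0.56 ± 0.10) and the chaperone gene Fkbp14 (-0.35 ± 0.07). With both siRNAs 5 were called without TGF-beta, all lower, and with TGF-beta 10 fell and 1 rose, where 4.45% and 13.1% of all genes were called. With p53 siRNA 1 fell and 1 rose without TGF-beta, and 1 fell and 2 rose with it, where 2.47% and 5.21% of all genes were called. These counts are too small to set against those shares.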

How the data were processed

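Libraries of MEC1 RNA were grouped by their titles. The authors deposited 1 table of expected counts per gene, not normalized; the submitters' processing notes name TopHat2, Partek and mm10, while versions, annotation, strand use and counting options are not given in the sources used here. Within a tolerance of 0.01, 60.0% of its nonzero values were whole, and all were rounded to whole counts before testing. Longer genes hold more counts.

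The edgeR 4.0.16 quasi-likelihood F test (R 4.3.3) was fitted to the 16 libraries with 1 mean per group, TMM scaling and filterByExpr; 15494 genes remained. Over 15 contrasts, called means a Benjamini-Hochberg value under 0.05 across those genes. All adjusted p-values are from edgeR unless DESeq2 (1.42.0) is named. CPM are TMM-scaled, and CPM per kb divide by the longest GENCODE vM21 transcript, found for all 44 genes. Gene ends are the table's stops less 1 base, because 36382 of 42003 genes matched by symbol had a stop 1 above the GENCODE end. The common biological coefficient of variation was 0.114, and 0.0604 without p53 siRNA with TGF-beta replicate 2.

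The fit was tested on simulated data with less spread than the 16 libraries and no library standing apart. For the TGF-beta response with control siRNA it recovered 44 of 67 simulated log2 changes of 0.5, 66 of 67 of 1 and 66 of 66 of 2. Any collagen gene could be named; of the synthesis list, up to 6 genes with the lowest adjusted p per TGF-beta response and up to 4 per siRNA effect. Members, classes and lists were chosen with earlier results of these data known. Alternatives were RLE scaling, DESeq2, no filter, a replicate block, only the groups of a contrast, each library left out, 15 libraries, and length offsets, which take out a lowess curve against log2 transcript length in every library.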

Additional observations from a re-analysis of the deposited data

Results flagged for a closer look

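The effect of TGF-beta differed between siRNA treatments, by a test of the interaction itself in edgeR, for the collagen genes below. All values are differences in the log2 response to TGF-beta, siRNA treatment minus control siRNA. With PRMT1 siRNA the difference was -2.53 for Col7a1, 1.06 for Col8a2 and 0.76 for Col11a2. With both siRNAs it was -2.61 for Col7a1, -1.0 for Col18a1, 0.77 for Col6a2 and 0.61 for Col3a1. With p53 siRNA it was -0.77 for Col18a1. These 3 interactions share the control libraries.

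The values of each library behind these differences stand in the report. With length offsets the difference for Col7a1 was -2.12 with PRMT1 siRNA (adjusted p = 0.0217) and -2.66 with both siRNAs (adjusted p = 0.00852).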

How the results depend on the processing

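The counts in this section, and those under other settings given above, are of collagen genes. Where no share of all genes stands beside them, they show only how the calls depend on the processing. Without the library that stood apart the common biological coefficient of variation was 0.0604, against 0.114 with it, which bears on all genes. RLE scaling moved no count of collagen genes called by over 1.5 times. Fitted to only the groups of a contrast, the TGF-beta response under p53 siRNA had 16 calls (25 in all 16 libraries). The same setting gave 8 for p53 siRNA without TGF-beta, 21, 0 and 16 for PRMT1, p53 and both siRNAs with TGF-beta, 7 and 9 for p53 siRNA added to PRMT1 siRNA without and with TGF-beta, and 11 and 0 for the PRMT1 and p53 interactions. For the counts of 0, edgeR gave 10 and 4 genes at an unadjusted p under 0.05 in all libraries, where 28.7% and 18.8% of all genes were.

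Without the library that stood apart (15 libraries), counts were 8 for p53 and 23 for both siRNAs without TGF-beta, 20 for PRMT1 and 17 for both siRNAs with TGF-beta, 10 and 7 for p53 siRNA added to PRMT1 siRNA without and with TGF-beta, and 11, 3 and 9 for the PRMT1, p53 and both-siRNA interactions. Length offsets on those 15 libraries gave 16 and 21 for p53 and both siRNAs without TGF-beta, 13 and 20 with TGF-beta, 10 and 10 for p53 siRNA added to PRMT1 siRNA, and 17, 6 and 12 for the interactions. Length offsets on 16 libraries gave 11 for p53 siRNA with TGF-beta, 4 and 4 for the addition of p53 siRNA, and 12, 4 and 8 for the interactions. DESeq2 gave 8 for p53 siRNA without TGF-beta, 6 and 4 for the addition, and 8 and 4 for the PRMT1 and p53 interactions. With no filter these 5 counts were 3, 3, 4, 7 and 2.

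Leaving out 1 library gave 22 to 24, 16 to 18, 24 to 26 and 17 to 19 calls for the TGF-beta responses under control, PRMT1, p53 and both siRNAs. It gave 7 to 8, 2 to 3 and 3 to 5 for PRMT1, p53 and both siRNAs without TGF-beta, and 4 to 5, 1 to 14 and 3 to 5 with it. The addition of p53 siRNA had 1 call in every case without TGF-beta and 0 in every case with it, where DESeq2 gave 4 and edgeR gave 8 genes at an unadjusted p under 0.05 in all libraries (10.5% of all genes). The interactions had 2, 0 to 10 and 2 to 3 calls for PRMT1, p53 and both siRNAs.

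Deviations of same-numbered libraries correlated at -0.401 to 0.246 over 28 pairs of groups, with 6 over 0.1 and others negative. These values cannot decide whether the numbers pair samples, and the main fit used no pairing. With a replicate block the addition of p53 siRNA to PRMT1 siRNA with TGF-beta had 1 call and the p53 interaction 0, and no other count moved by over 1.5 times. Of the single-gene values named, those that changed sign were small and uncalled, and did so with length offsets. Col11a2 under PRMT1 siRNA had a TGF-beta response of 0.04 on 16 and on 15 libraries, Col3a1 with p53 siRNA was -0.02 on both, and the p53 interaction of Col7a1 was 0.24 on 16. The cause of these changes was not tested. With 2 libraries per group, small changes may go undetected.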
